A study of Mus musculus with 9 samples.

Results

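A total of 40 genes of the glutathione, thioredoxin and NRF2 antioxidant systems was followed in mouse hearts. The genes were taken as a listed set of symbols, and all 40 had a row among the 23457 rows of the count table. The hearts came from 2 groups of adult mice, 4 labelled as germline knockouts of Parkin (here KO) and 5 wild type (WT), all on a C57BL/6J background. The sources used here do not give the mutant allele, the sex or a more exact age, and the KO group is named by its label throughout. Each library was poly(A) RNA of 1 heart, which the labels call whole heart in 1 place and ventricular apex in another. The study itself centred on fly hearts, with these mouse libraries added to it. The comparison asks which transcripts differ between the genotypes.

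Glutathione is a small thiol that glutathione peroxidases and transferases use to reduce peroxides and to conjugate reactive compounds, and glutathione reductase regenerates it with NADPH. Thioredoxin works beside it, kept reduced by thioredoxin reductase, and hands electrons to the peroxiredoxins, with separate sets of proteins in the cytosol and in the mitochondrion. NRF2, encoded by Nfe2l2, is a transcription factor that KEAP1 marks for degradation. Oxidants or electrophiles release NRF2, which then binds antioxidant response elements in the promoters of many of these genes. Cardiac muscle, with its dense mitochondria, relies on these systems to remove hydrogen peroxide.

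Park2, the gene of Parkin in these files, had 82, 53, 54 and 37 reads in KO hearts 1 to 4, against 74, 14, 8, 44 and 16 reads in WT hearts 1 to 5. It averaged 3.12 ± 0.57 CPM (reads per library size, defined below) in KO hearts and 3.10 ± 1.14 CPM in WT hearts. The groups overlapped and no difference was called (log2 fold change 0.06 ± 0.26, adjusted p = 0.862, edgeR), and with the GC and length trends removed it was higher (0.84 ± 0.25, adjusted p = 0.0149). Which part of the gene was deleted is not given in the sources used here, and reads outside that part check nothing. The genotype behind every KO over WT value thus rests on the labels.

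Assigned reads ranged from 11637206 to 15777844 in the KO hearts and from 4415183 to 20827699 in the WT hearts, with WT hearts 2 and 3 the shallowest. Mitochondrially encoded transcripts took 10.04% to 15.4% of reads in KO hearts, against 32.6% to 58.2% in WT hearts. Each heart's deviation from the mean of all hearts also followed transcript GC content, with a slope of 0.16 to 0.63 log2 units per 10 percentage points of GC in KO hearts and of -0.38 to -0.18 in WT hearts. Both measures thus separated the genotypes without overlap. The main counts of called genes are therefore also given with the mitochondrially encoded rows left out and with the GC trend removed. Of the 7 cardiomyocyte markers, 2 were higher, 1 was lower and their summed level was 69194 to 77824 CPM in KO hearts, against 55580 to 61030 CPM in WT hearts. Of the 6 fibroblast markers, 3 were higher and 2 lower, with sums of 568 to 1036 CPM in KO hearts and 526 to 677 CPM in WT hearts. Endothelial markers summed to 622 to 747 CPM in KO hearts and 699 to 830 CPM in WT hearts (2 of 6 higher, 2 lower), and mural markers to 671 to 907 CPM and 527 to 742 CPM in the same order (2 of 6 higher, 1 lower). Macrophage markers summed to 175 to 206 CPM in KO hearts and 154 to 213 CPM in WT hearts, with 2 of the 7 higher and 2 lower. Lymphocyte markers summed to 3.58 to 6.46 CPM in KO hearts and 6.04 to 11.8 CPM in WT hearts, with 1 of 3 tested lower. Erythroid markers summed to 8.59 to 20.4 CPM in KO hearts and 11.3 to 21.7 CPM in WT hearts, the globin rows Hba-a1, Hba-a2 and Hbb-b1 being at 0 in all 9 hearts. Of the 8 erythroid markers listed 6 had a row, and the globin genes Hbb-bs and Hbb-bt had none. The empty globin rows thus do not show that red-cell RNA was absent. Adipocyte markers reached at most 5.01 CPM in a KO heart and 1.73 CPM in a WT heart, and liver markers 0.573 CPM and 1.18 CPM in the same order. The part of these markers in the results was not tested. In such bulk tissue, fewer cells of a type cannot be told apart from less RNA per cell.

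CPM here is the usual count per library size, with TMM scaling, and a log2 fold change is KO over WT with its standard error from edgeR. A gene was called when edgeR's Benjamini-Hochberg adjusted p over all tested genes was under 0.05. Means are given ± SD over the 4 KO and 5 WT hearts, and gene coordinates are on GRCm38. All 40 antioxidant genes passed the expression filter. Of these, 13 were higher in KO hearts, 13 were lower and 14 were not called. With the mitochondrially encoded genes and the ribosomal row Rn45s left out before scaling, 14 were higher, Prdx4 being added, and 13 lower. Among all 12640 genes tested, 51.4% were called, 26.2% as higher and 25.2% as lower. The CPM of KO and WT hearts did not overlap for 22 of the 40 genes, against 41.6% of all tested genes. The median log2 fold change was 0.07 over the 40 genes and -0.0059 over all genes.

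Because of the GC trend, the comparison was fitted a second time with each heart's GC and length trends removed. In that fit 9 of the antioxidant genes were higher and 12 lower, and the background was 38.7% called among 12542 genes, 19.0% higher and 19.7% lower. Both fits gave the same call for 8 genes that were higher and for 10 that were lower, and no antioxidant gene was called in opposite directions. Over all genes 27.5% had matching calls in both fits, 13.5% higher and 14.0% lower. The antioxidant genes, like the genes in general, were thus divided between higher and lower in both fits. The removal also takes away any genotype difference that happens to follow GC content or length.

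**Figure D1:**
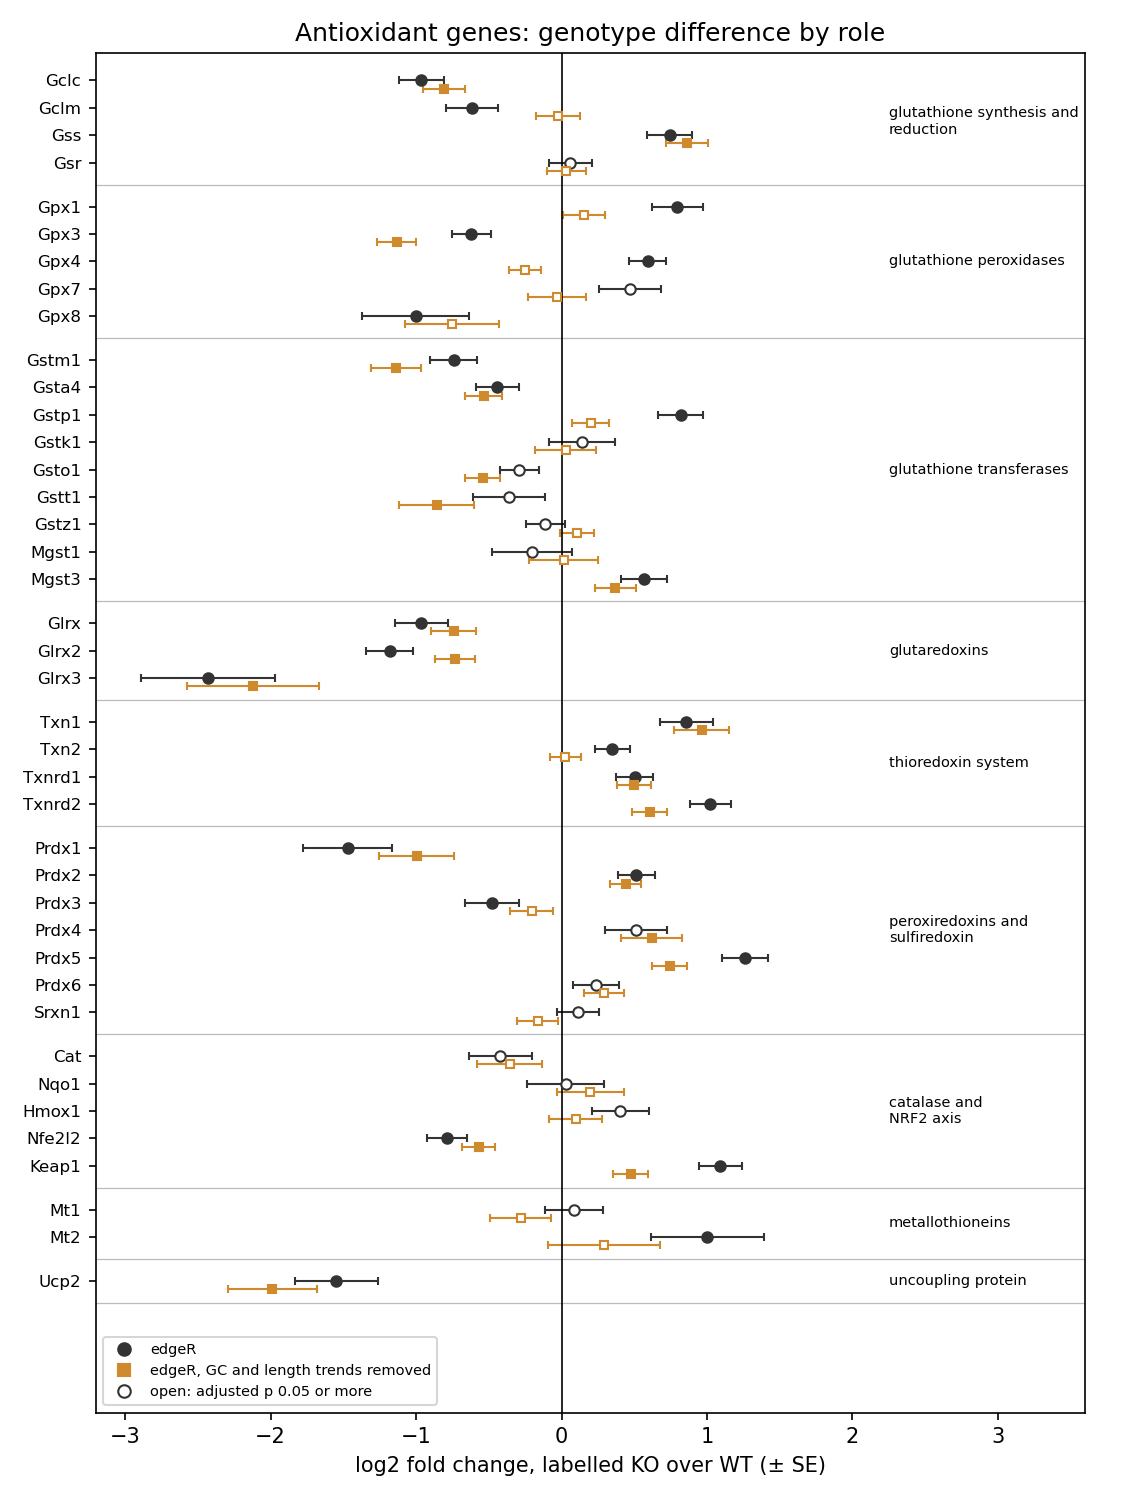
Log2 fold change (horizontal axis, KO over WT, bars are SE) of the 40 antioxidant genes grouped by role, from edgeR (black circles) and with GC and length trends removed (orange squares), filled where the adjusted p was under 0.05. The thioredoxin system lies right of 0 and the glutaredoxins lie left of it in both fits, while Gpx4 stands at 0.59 in the first and at -0.25 in the second.

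Levels of different genes are set side by side per transcript length, as the authors' FPKM. The highest was Gpx4, at 783 ± 105 FPKM in KO hearts and 351 ± 74 FPKM in WT hearts, followed in KO hearts by Prdx5, at 550.1 ± 84.1 FPKM in KO hearts and 159 ± 61 FPKM in WT hearts, Mt1, at 544 ± 166 FPKM in KO hearts and 341 ± 81 FPKM in WT hearts and Mgst3, at 497 ± 94 FPKM in KO hearts and 232 ± 89.6 FPKM in WT hearts. Gpx4 made up 17.8% of the summed FPKM of the 40 genes in KO hearts and 14.1% in WT hearts, and Prdx5 made up 12.5% and 6.42% in the same order. The subunits of the enzyme that begins glutathione synthesis were near the bottom, Gclc at 2.42 ± 0.29 FPKM in KO hearts and 3.18 ± 0.47 FPKM in WT hearts (SD, n = 4 and 5), and Gclm at 3.75 ± 1.05 and 3.86 ± 0.97 FPKM in the same order. The FPKM level scale is shifted between genotypes. The median log2 fold change over all genes with a mean FPKM of at least 0.5 was 0.44 on the log2(FPKM + 1) scale, tested with limma, and 53.3% of 12637 genes were called. On the FPKM as deposited 20 of the 40 genes were higher and 4 lower, beside 5961 higher and 769 lower of all 12637 genes. With each heart's log2 values centred on their median 13 were higher and 11 lower, beside 3214 and 3593 of all 12637 genes.

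**Figure D2:**
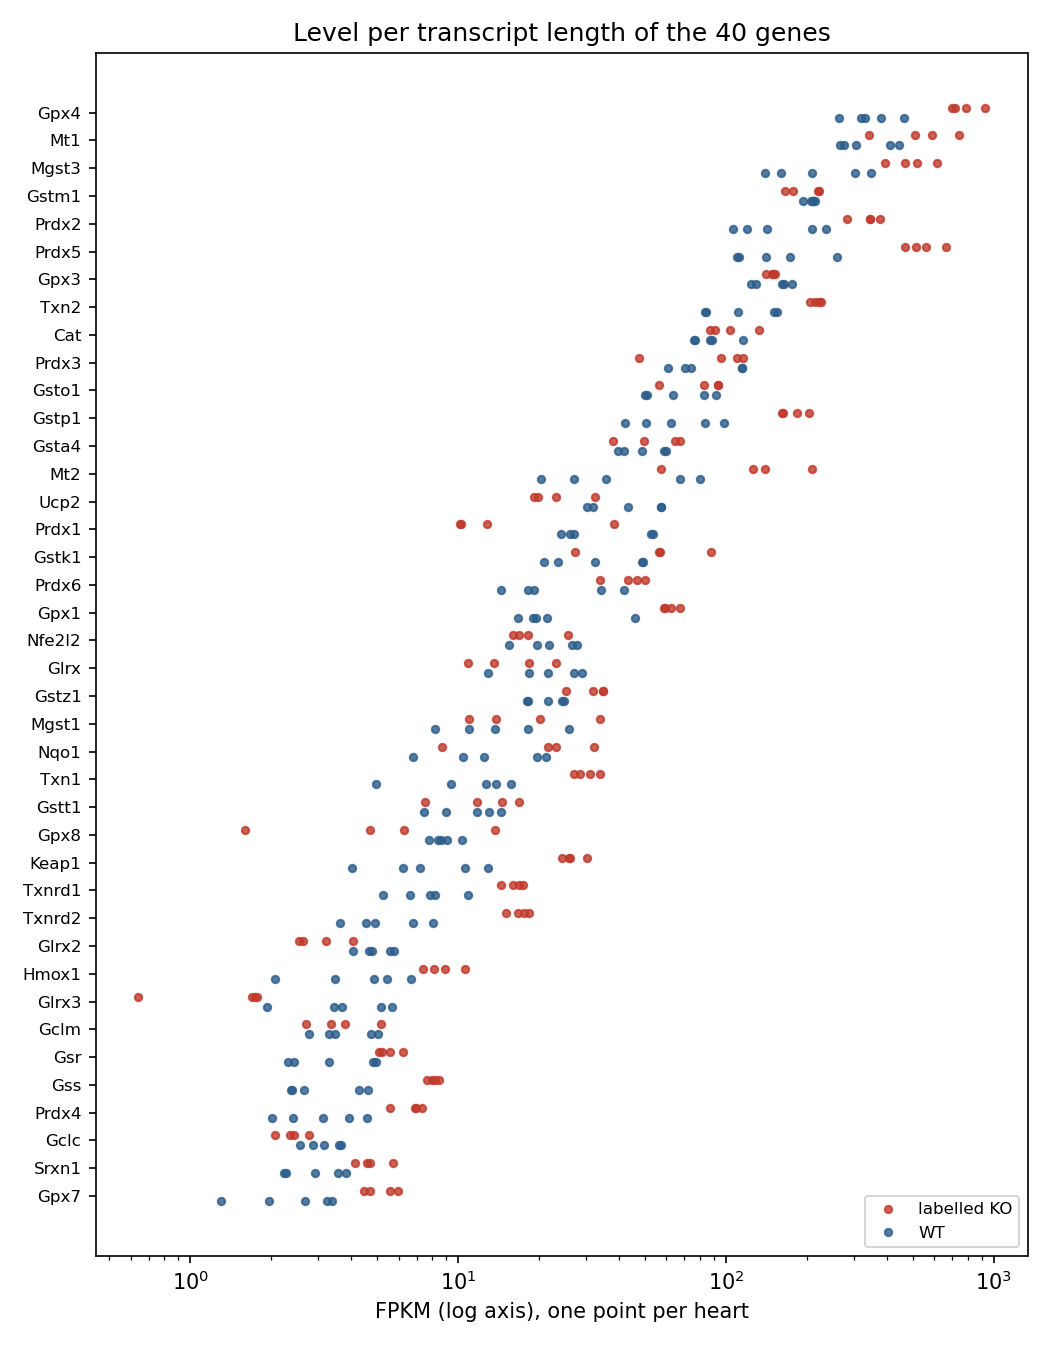
FPKM per heart (horizontal log axis, 1 point per heart, KO in red above WT in blue) of the 40 antioxidant genes, ordered by the WT mean. Gpx4 leads at 783 in KO and 351 in WT hearts on average, and the deposited FPKM of KO hearts lie to the right for most genes.

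Promoter sequence bears on these genes because NRF2 and the metal-sensing factor MTF1 bind short motifs in it, so the windows that held a match in 3 genes of the NRF2 system and in both metallothionein genes are shown. The windows are the 250 bases before a RefSeq transcript start on GRCm38.p6, read 5′ to 3′ on the gene's strand. Of the 40 genes, 35 had such a window in the RefSeq table. The antioxidant response element was searched as TGACNNNGC on both strands and was found for 7 of the 35 genes (20%), against 11.5% of 27025 genes. The 7 were Gclm, Mgst1, Txnrd1, Prdx1, Nfe2l2, Ucp2 and Mt2, and the match of Gclm overlapped a metal response element match. By role, 3 of the 8 NRF2 target genes with a window held a match and 4 of the other 27. In the following 3 windows capitals mark the match: Txnrd1 (chr10:82858956-82859205, plus strand, another RefSeq start of the gene), Prdx1 (chr4:116685349-116685598, plus strand) and Nfe2l2 (chr2:75704664-75704913, minus strand).
Txnrd1: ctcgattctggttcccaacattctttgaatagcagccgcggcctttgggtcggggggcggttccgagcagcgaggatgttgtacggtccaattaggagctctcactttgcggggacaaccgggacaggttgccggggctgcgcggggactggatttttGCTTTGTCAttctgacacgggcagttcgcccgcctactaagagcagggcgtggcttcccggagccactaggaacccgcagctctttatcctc
Prdx1: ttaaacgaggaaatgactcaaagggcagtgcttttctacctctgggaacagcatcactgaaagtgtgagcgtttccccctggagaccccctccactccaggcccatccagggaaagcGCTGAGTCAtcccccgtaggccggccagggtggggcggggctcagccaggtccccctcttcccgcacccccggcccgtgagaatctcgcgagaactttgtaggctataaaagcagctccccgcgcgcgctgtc
Nfe2l2: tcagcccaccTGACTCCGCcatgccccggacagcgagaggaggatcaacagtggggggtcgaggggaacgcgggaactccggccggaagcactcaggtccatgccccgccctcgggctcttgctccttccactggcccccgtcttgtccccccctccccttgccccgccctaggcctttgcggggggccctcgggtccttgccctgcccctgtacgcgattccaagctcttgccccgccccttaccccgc
The metal response element was searched as TGCNCNC on both strands, a short motif that 47.2% of all genes hold at least once in such a window. In a window 5.35% of all genes hold 3 or more matches. Elements outside the windows were not searched for, so the counts are not those of a whole promoter. Mt1 held 1 match and Mt2 held 5, marked by capitals, in windows at chr8:94178839-94179088 and chr8:94172368-94172617, both on the plus strand.
Mt1: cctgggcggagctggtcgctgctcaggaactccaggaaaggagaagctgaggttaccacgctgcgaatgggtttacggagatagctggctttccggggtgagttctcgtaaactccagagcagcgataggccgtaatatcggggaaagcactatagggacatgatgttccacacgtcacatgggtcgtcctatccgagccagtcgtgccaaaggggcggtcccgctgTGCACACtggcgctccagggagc
Mt2: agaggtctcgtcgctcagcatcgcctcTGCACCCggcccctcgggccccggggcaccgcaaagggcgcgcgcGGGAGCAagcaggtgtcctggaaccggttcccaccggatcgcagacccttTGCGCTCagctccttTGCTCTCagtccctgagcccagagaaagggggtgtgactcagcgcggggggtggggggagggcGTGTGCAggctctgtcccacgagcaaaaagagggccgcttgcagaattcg
A match describes letters and is no evidence of binding. Of the 5 genes printed, Txnrd1 was higher in both fits, Prdx1 and Nfe2l2 were lower in both, Mt1 was called in neither and Mt2 was higher in the first fit.

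The regulator and its inhibitor moved in opposite directions. Nfe2l2, the gene of NRF2 itself (chr2:75675513-75704641), had 44.8, 34.2, 31.7 and 31.9 CPM in KO hearts 1 to 4, against 57.7, 55.5, 70.5, 64.8 and 59.7 CPM in WT hearts 1 to 5. Every KO heart was below every WT heart, and KO heart 1 was the highest of its group. Nfe2l2 fell by edgeR (log2 fold change -0.79 ± 0.13, adjusted p = 0.000264) and with trends removed (-0.57 ± 0.11, adjusted p = 0.00132). On the deposited FPKM its log2 fold change was -0.20 and not called, and with centred FPKM it was -0.69 and called. Keap1, the adaptor that delivers NRF2 to the CUL3 ubiquitin ligase (chr9:21229730-21239361), had 58.8, 67.0, 68.2 and 82.8 CPM in KO hearts 1 to 4, against 39.4, 23.6, 28.4, 35.1 and 32.8 CPM in WT hearts 1 to 5. The groups did not overlap, and KO heart 4 was the highest of all. Keap1 rose by edgeR (log2 fold change 1.09 ± 0.15, adjusted p = 5.01e-05), and with trends removed the fold was smaller but still called (0.48 ± 0.12, adjusted p = 0.00694). An antisense gene, Gm16754, covers 10.9% of the exon bases of Keap1, and reads of the 2 strands cannot be told apart.

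Among the classic NRF2 target genes, the detoxifying quinone reductase Nqo1 (chr8:107388225-107403206) had 33.3, 26.0, 24.1 and 10.3 CPM in KO hearts 1 to 4, against 27.5, 22.2, 13.0, 27.2 and 22.5 CPM in WT hearts 1 to 5. These ranges overlapped widely, and KO heart 4 was the lowest of the 9. Nqo1 was not called by edgeR (log2 fold change 0.03 ± 0.26, adjusted p = 0.935) or with trends removed (0.20 ± 0.23, adjusted p = 0.531). Hmox1, haem oxygenase 1 (chr8:75093621-75100589), had 8.64, 10.2, 8.39 and 12.7 CPM in KO hearts 1 to 4, against 8.74, 4.51, 9.48, 7.66 and 6.38 CPM in WT hearts 1 to 5. KO hearts 1 and 3 lay within the WT range and KO hearts 2 and 4 above it, and the gene was not called by edgeR (log2 fold change 0.41 ± 0.20, adjusted p = 0.0986) or with trends removed (0.10 ± 0.18, adjusted p = 0.704). Srxn1, sulfiredoxin, which repairs over-oxidised peroxiredoxins, was not called either, and its fold changed sign with the trends removed (0.12 and -0.16). Over the 12 NRF2 target genes of the list, 3 were higher (Gstp1, Txn1 and Txnrd1), 4 were lower (Gclc, Gclm, Gstm1 and Prdx1) and 5 were not called. With trends removed 2 were higher and 3 lower. Over all tested genes the shares were 26.2% higher and 25.2% lower by edgeR, and 19.0% and 19.7% with trends removed. The median log2 fold change of the 12 was 0.09 in the first fit and 0.07 in the second. Of the other 28 genes, 10 were higher and 9 lower. The summed level of the 12 targets was 367 to 444 CPM in KO hearts and 481 to 561 CPM in WT hearts, and with trends removed 364 to 429.5 CPM in KO hearts and 489.7 to 631 CPM in WT hearts. Those sums did not overlap between the groups, and the 3 genes Gstm1, Prdx1 and Gclc that were lower in both fits are part of them. On CPM the sum averaged 408 in KO hearts and 507 in WT hearts. Gstm1, the most abundant of the 12, alone averaged 162 ± 17.5 and 272 ± 61.4 CPM in the same order. The sums thus weigh Gstm1 most and do not describe the targets evenly. Catalase, a peroxisomal enzyme that breaks down hydrogen peroxide, averaged 200.4 ± 39.1 CPM in KO hearts and 269 ± 99.5 CPM in WT hearts and was not called by edgeR (log2 fold change -0.42 ± 0.22, adjusted p = 0.117) or with trends removed (-0.36 ± 0.23, adjusted p = 0.228).

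**Figure D3:**
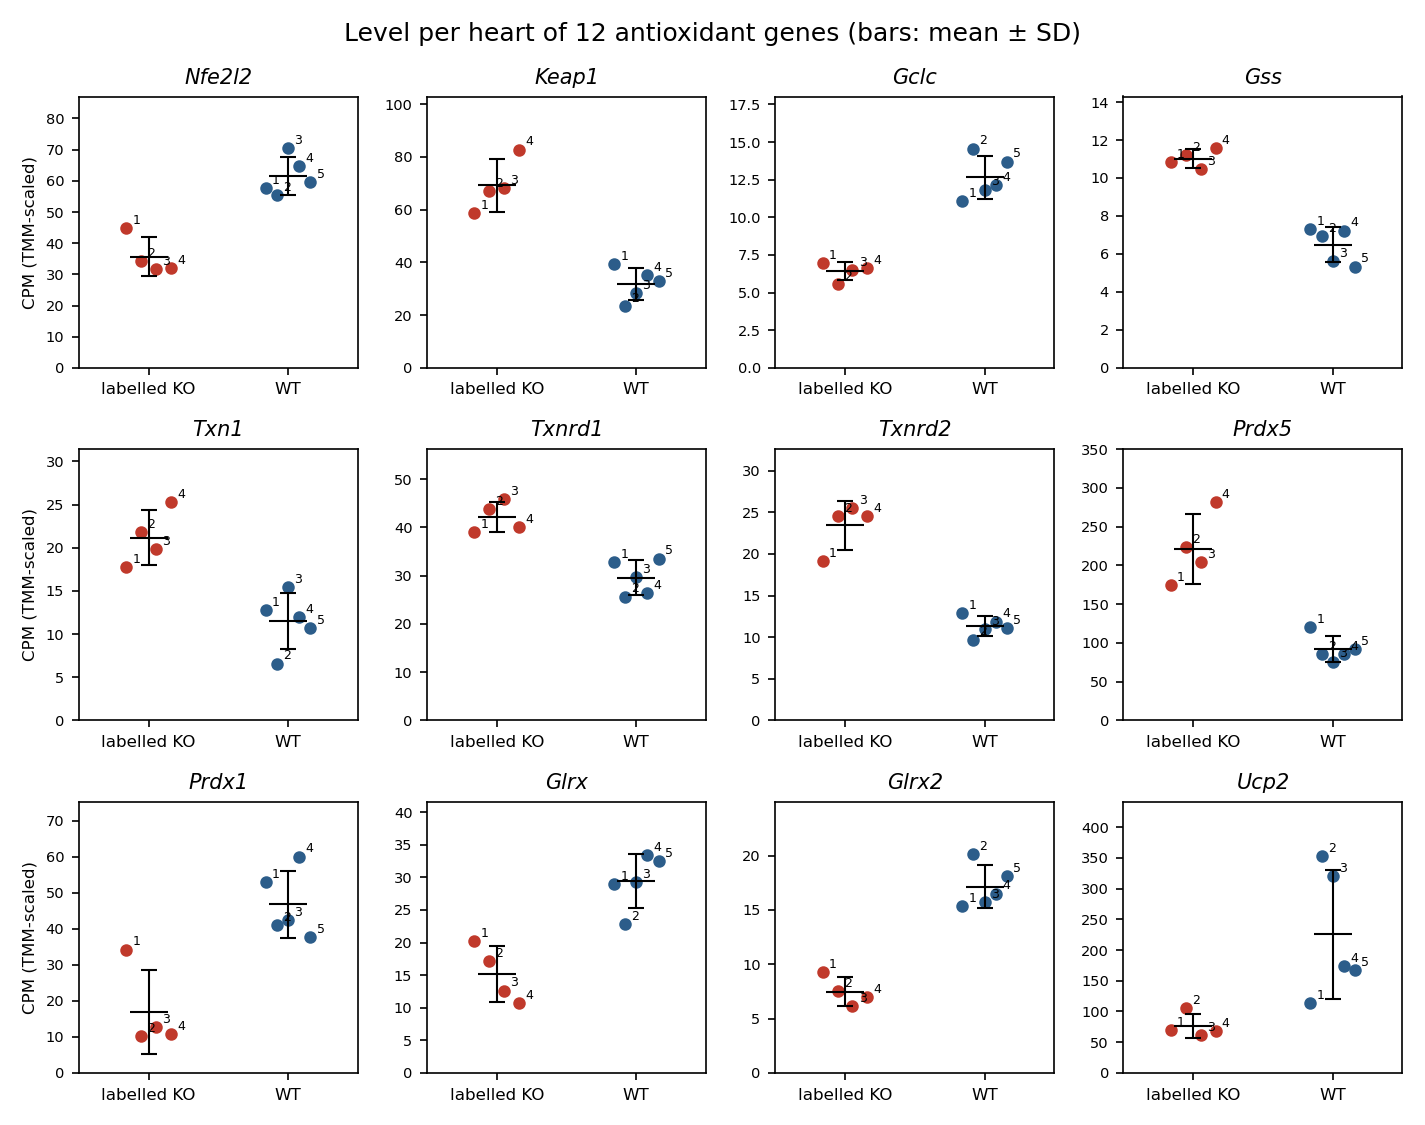
TMM-scaled CPM (vertical axis from 0) of 12 antioxidant genes in each KO heart (red, left) and WT heart (blue, right), numbered, with the mean and SD as bars. The panels show only genes from the 22 of 40 whose genotypes do not overlap, against 41.6% of all tested genes. Keap1 and Prdx5 are above WT, and Prdx1 in KO heart 1, at 34.2 CPM, stands apart from the other KO hearts.

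Glutathione synthesis and reduction showed changes in both directions, with 1 of 4 genes higher and 2 lower, and 1 higher and 1 lower with trends removed. Gclc, the catalytic subunit of glutamate-cysteine ligase, the rate-limiting enzyme of glutathione synthesis (chr9:77754535-77794485), had 6.93, 5.54, 6.52 and 6.66 CPM in KO hearts 1 to 4, against 11.1, 14.6, 11.8, 12.2 and 13.7 CPM in WT hearts 1 to 5. All KO hearts were below all WT hearts. Gclc fell to about the same degree by edgeR (log2 fold change -0.96 ± 0.15, adjusted p = 0.000154) and with trends removed (-0.81 ± 0.15, adjusted p = 0.000737), while on the deposited FPKM its log2 fold change of -0.29 was not called (-0.78 and called when centred). Gclm, the modifier subunit of the same enzyme (chr3:122245557-122270732), had 7.46, 5.84, 5.16 and 4.44 CPM in KO hearts 1 to 4, against 9.01, 9.71, 7.40, 9.06 and 8.71 CPM in WT hearts 1 to 5. KO heart 1 lay just above the lowest WT heart. Gclm was lower by edgeR (log2 fold change -0.61 ± 0.18, adjusted p = 0.0105), but with trends removed no difference was left to call (-0.02 ± 0.15, adjusted p = 0.926). The second fit used the longest annotated transcript of Gclm, of 5589 bases, which may not be the main one in these hearts. Gss, glutathione synthetase, which adds the last amino acid (chr2:155563181-155592810), had 10.8, 11.2, 10.5 and 11.6 CPM in KO hearts 1 to 4, against 7.31, 6.94, 5.63, 7.23 and 5.34 CPM in WT hearts 1 to 5. Its KO hearts were all above its WT hearts and close to each other. Gss rose by edgeR (log2 fold change 0.74 ± 0.16, adjusted p = 0.00119) and with trends removed (0.86 ± 0.15, adjusted p = 0.000495), and on the opposite strand Acss2 shares 6.68% of its exon bases. Gsr, glutathione reductase, averaged 11.2 ± 0.534 CPM in KO hearts and 10.5 ± 1.6 CPM in WT hearts and was not called by edgeR (log2 fold change 0.06 ± 0.15, adjusted p = 0.750) or with trends removed (0.03 ± 0.13, adjusted p = 0.879).

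Of the 5 glutathione peroxidases, 2 were higher and 2 lower, and with trends removed 1 was lower and none higher. Gpx3, the secreted peroxidase found in plasma (chr11:54902453-54910377), had 151, 165, 153 and 172 CPM in KO hearts 1 to 4, against 203, 258, 309, 237 and 227 CPM in WT hearts 1 to 5. KO and WT hearts were separated, and the KO hearts lay close together. Gpx3 fell by edgeR (log2 fold change -0.62 ± 0.13, adjusted p = 0.00136), and with trends removed the fall was larger (-1.13 ± 0.14, adjusted p = 4.28e-05). Gpx1, the main cytosolic peroxidase, averaged 43.2 ± 4.4 CPM in KO hearts and 24.5 ± 7.1 CPM in WT hearts, a rise by edgeR (log2 fold change 0.80 ± 0.18, adjusted p = 0.00169) that was not called with trends removed (0.15 ± 0.14, adjusted p = 0.418). Gpx4, which reduces lipid hydroperoxides in membranes, averaged 474 ± 76 CPM in KO hearts and 314 ± 19 CPM in WT hearts. It was called higher by edgeR (log2 fold change 0.59 ± 0.13, adjusted p = 0.00140), and with trends removed the sign turned and no call was made (-0.25 ± 0.11, adjusted p = 0.0838). Gpx8 of the endoplasmic reticulum varied from 1.15 to 8.60 CPM in KO hearts, against 7.59 to 11.1 CPM in WT hearts. It was lower by edgeR (log2 fold change -1.001 ± 0.37, adjusted p = 0.0328) but not with trends removed, and the call was lost on leaving out any single one of KO hearts 2, 3 and 4 and WT hearts 2, 3 and 5 (log2 fold change -0.70 to -1.03). Without KO heart 1 its log2 fold change was -1.60. Gpx7, also of the endoplasmic reticulum, was not called by edgeR (log2 fold change 0.47 ± 0.21, adjusted p = 0.0746), with a log2 fold change of -0.03 when trends were removed.

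Among the 9 glutathione transferases, which conjugate glutathione to electrophiles, 2 were higher and 2 lower, and with trends removed 1 was higher and 4 lower. Gstm1, the most abundant cytosolic transferase here by reads (chr3:108012255-108017973), had 171, 182, 148 and 147 CPM in KO hearts 1 to 4, against 205, 359, 287, 221 and 287 CPM in WT hearts 1 to 5. Every KO heart was below every WT heart. Gstm1 fell by edgeR (log2 fold change -0.74 ± 0.16, adjusted p = 0.00140) and by more with trends removed (-1.14 ± 0.17, adjusted p = 0.000213). Gsta4, known for conjugating the lipid peroxidation product hydroxynonenal (chr9:78182774-78209349), had 39.1, 40.3, 30.7 and 25.0 CPM in KO hearts 1 to 4, against 42.5, 47.2, 52.1, 46.4 and 42.2 CPM in WT hearts 1 to 5. Its KO hearts were lower without overlap, KO hearts 1 and 2 by little. Gsta4 fell by edgeR (log2 fold change -0.44 ± 0.15, adjusted p = 0.0214) and with trends removed (-0.54 ± 0.13, adjusted p = 0.00496). Its first call was lost without KO heart 3 (-0.40) or KO heart 4 (-0.32). Mgst3, a membrane-bound transferase and peroxidase (chr1:167371966-167393841), had 155, 220.0, 184 and 148 CPM in KO hearts 1 to 4, against 143, 109.6, 85.9, 134 and 122 CPM in WT hearts 1 to 5. Its KO hearts were all above its WT hearts. Mgst3 rose by edgeR (log2 fold change 0.57 ± 0.16, adjusted p = 0.00781) and at the margin with trends removed (0.37 ± 0.14, adjusted p = 0.0477), a call that was lost on leaving out KO heart 2 or 3 or WT heart 2, 3, 4 or 5. Gstp1 averaged 22.4 ± 3.3 CPM in KO hearts and 12.4 ± 2.0 CPM in WT hearts and rose by edgeR (log2 fold change 0.82 ± 0.15, adjusted p = 0.000498), but not with trends removed (0.20 ± 0.13, adjusted p = 0.224). Gsto1 and Gstt1 were called only with trends removed, both as lower (-0.54 ± 0.12 for Gsto1 and -0.86 ± 0.26 for Gstt1). Gstk1, Gstz1 and Mgst1 were called in neither fit, with edgeR log2 fold changes of 0.14, -0.11 and -0.20. Members of the Gstm and Gstp families are close in sequence, so the counts of Gstm1 and Gstp1 may hold reads of their relatives or miss reads shared with them.

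The 3 glutaredoxins were all lower in both fits. Of them, Glrx and Glrx2 use glutathione to reduce protein disulfides and mixed disulfides. Glrx, the cytosolic dithiol form (chr13:75839868-75850154), had 20.2, 17.2, 12.6 and 10.7 CPM in KO hearts 1 to 4, against 29.0, 22.9, 29.3, 33.4 and 32.5 CPM in WT hearts 1 to 5. The groups did not overlap. Glrx fell by edgeR (log2 fold change -0.96 ± 0.18, adjusted p = 0.000528) and with trends removed (-0.74 ± 0.16, adjusted p = 0.00200). Glrx2, the mitochondrial form (chr1:143716338-143749676), had 9.31, 7.53, 6.12 and 6.94 CPM in KO hearts 1 to 4, against 15.3, 20.1, 15.7, 16.5 and 18.1 CPM in WT hearts 1 to 5. Every WT heart exceeded every KO heart, and the fall was called by edgeR (log2 fold change -1.18 ± 0.16, adjusted p = 4.89e-05) and with trends removed (-0.73 ± 0.14, adjusted p = 0.000958). Glrx3, a monothiol form that carries iron-sulfur clusters (chr7:137437614-137468594), had 0.285, 0.422, 0.607 and 0.0716 CPM in KO hearts 1 to 4, against 1.26, 2.77, 3.26, 2.39 and 1.28 CPM in WT hearts 1 to 5. That level rests on 1 to 12 reads per KO heart and 8 to 34 reads per WT heart. Glrx3 fell by edgeR (log2 fold change -2.43 ± 0.46, adjusted p = 0.000561) and with trends removed (-2.12 ± 0.45, adjusted p = 0.00223), and its counts are the thinnest of the 40 genes. The authors' FPKM averaged 1.47 ± 0.55 in KO hearts and 3.98 ± 1.48 in WT hearts, a smaller log2 fold change of -0.99 on the log2(FPKM + 1) scale (-1.48 when centred), called lower both times by limma. Gclc, at a lower 3.18 ± 0.47 FPKM in WT hearts, had 40 to 247 reads there, against 8 to 34 for Glrx3. Reads and FPKM of Glrx3 thus differ in relative level, and the cause was not tested.

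The thioredoxin system was higher in KO hearts for all 4 of its genes by edgeR, and for 3 of them with trends removed. Txn1, cytosolic thioredoxin (chr4:57943373-57956411), had 17.7, 21.9, 19.9 and 25.3 CPM in KO hearts 1 to 4, against 12.8, 6.59, 15.4, 12.01 and 10.7 CPM in WT hearts 1 to 5. The lowest KO heart was above the highest WT heart, and WT heart 2 was the lowest of all. Txn1 rose by edgeR (log2 fold change 0.86 ± 0.18, adjusted p = 0.00124) and with trends removed (0.96 ± 0.19, adjusted p = 0.00126). Txnrd1, the cytosolic reductase that returns electrons from NADPH to thioredoxin (chr10:82833951-82897712), had 39.0, 43.7, 45.9 and 40.01 CPM in KO hearts 1 to 4, against 32.8, 25.7, 29.6, 26.3 and 33.5 CPM in WT hearts 1 to 5. Its groups were apart but close. Txnrd1 rose by edgeR (log2 fold change 0.50 ± 0.12, adjusted p = 0.00379) and by the same amount with trends removed (0.50 ± 0.11, adjusted p = 0.00367). Txnrd2, its mitochondrial counterpart (chr16:18426384-18479073), had 19.1, 24.5, 25.5 and 24.6 CPM in KO hearts 1 to 4, against 12.9, 9.71, 11.0, 11.9 and 11.1 CPM in WT hearts 1 to 5. The groups were well apart, with KO heart 1 the lowest of the KO hearts. Txnrd2 rose by edgeR (log2 fold change 1.02 ± 0.14, adjusted p = 5.41e-05), and with trends removed the fold was smaller (0.61 ± 0.12, adjusted p = 0.00121). Txn2, mitochondrial thioredoxin and the most abundant of the 4 by reads (chr15:77915047-77929006), had 172, 193, 198 and 213 CPM in KO hearts 1 to 4, against 156, 144, 128, 172 and 159.8 CPM in WT hearts 1 to 5. KO heart 1 lay at the upper end of the WT range. Txn2 was called by edgeR (log2 fold change 0.35 ± 0.12, adjusted p = 0.0254) but not with trends removed (0.03 ± 0.10, adjusted p = 0.862), and the call was also lost without KO heart 2, 3 or 4 or WT heart 2 or 3 (0.28 to 0.36).

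Peroxiredoxins, which take electrons from thioredoxin to reduce hydrogen peroxide, changed in both directions. Of the 7 genes with sulfiredoxin, 2 were higher and 2 lower by edgeR, and 3 higher and 1 lower with trends removed. Prdx1, an abundant cytosolic peroxiredoxin of many tissues (chr4:116685544-116700822), had 34.2, 10.1, 12.6 and 10.7 CPM in KO hearts 1 to 4, against 53.0, 40.9, 42.4, 60.0 and 37.7 CPM in WT hearts 1 to 5. KO hearts 2, 3 and 4 were at about 10 to 13 CPM and KO heart 1 was just below the WT range. Prdx1 fell by edgeR (log2 fold change -1.47 ± 0.31, adjusted p = 0.00111) and with trends removed (-0.995 ± 0.26, adjusted p = 0.00768), where the groups overlapped. Prdx2, a cytosolic peroxiredoxin also prominent in red cells (chr8:84969587-84974834), had 196, 230.2, 211 and 184 CPM in KO hearts 1 to 4, against 168, 123, 126, 159 and 141 CPM in WT hearts 1 to 5. Its groups did not overlap. Of the erythroid markers, Alas2 averaged 13.3 ± 5.0 CPM in KO hearts and 14.9 ± 4.0 CPM in WT hearts, and their part in the result was not tested. Prdx2 rose by edgeR (log2 fold change 0.51 ± 0.13, adjusted p = 0.00379) and with trends removed (0.44 ± 0.11, adjusted p = 0.00485). Prdx5, found in mitochondria, peroxisomes and cytosol (chr19:6906697-6910106), had 174, 224, 204 and 282 CPM in KO hearts 1 to 4, against 119.9, 85.7, 75.8, 85.9 and 91.9 CPM in WT hearts 1 to 5. All KO hearts were above all WT hearts, with KO heart 4 the highest. Prdx5 rose by edgeR (log2 fold change 1.26 ± 0.16, adjusted p = 2.75e-05), the largest rise among the 40 genes in that fit, and with trends removed (0.74 ± 0.12, adjusted p = 0.000326). Its exons share 19.1% of their bases with Trmt112 on the opposite strand. Prdx3, the mitochondrial peroxiredoxin, averaged 93.3 ± 28.6 CPM in KO hearts and 129.99 ± 11.20 CPM in WT hearts. It was lower by edgeR (log2 fold change -0.48 ± 0.19, adjusted p = 0.0416), a call that was lost with trends removed (-0.21 ± 0.15, adjusted p = 0.297) and on leaving out KO heart 2 or 4 or WT heart 1, 3, 4 or 5; without KO heart 4 its log2 fold change was -0.28. Prdx4 of the secretory pathway was not called by edgeR (log2 fold change 0.51 ± 0.21, adjusted p = 0.0557) and was higher with trends removed (0.62 ± 0.21), a call that was lost without KO heart 3 or 4 or WT heart 4 or 5. Prdx6 was called in neither fit (0.24 by edgeR).

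Metallothioneins are small cysteine-rich proteins that bind zinc and copper and rise with glucocorticoids and metals. Mt1 (chr8:94179082-94180327) had 193, 142, 95.1 and 174 CPM in KO hearts 1 to 4, against 143, 143, 198, 106 and 125 CPM in WT hearts 1 to 5. The groups overlapped. Mt1 was not called by edgeR (log2 fold change 0.08 ± 0.20, adjusted p = 0.745) or with trends removed (-0.28 ± 0.21, adjusted p = 0.304). Mt2 (chr8:94172664-94173568) had 38.1, 36.8, 16.6 and 64.6 CPM in KO hearts 1 to 4, against 22.6, 19.8, 39.98, 9.83 and 9.63 CPM in WT hearts 1 to 5. It spread widely within each genotype, KO hearts 1, 2 and 3 lay within the WT range, and KO heart 4 was above it. Mt2 was called higher by edgeR (log2 fold change 1.003 ± 0.39, adjusted p = 0.0403) but not with trends removed (0.29 ± 0.39, adjusted p = 0.583). The first call was lost without KO heart 1, 2 or 4 or WT heart 2, 4 or 5, and without KO heart 4 the log2 fold change was 0.67. An antisense gene, Gm45774, covers 73.5% of the exon bases of Mt2. Within a heart, the ratio of Mt2 to Mt1 reads was 0.175 to 0.372 in KO hearts and 0.0771 to 0.202 in WT hearts, so the groups overlapped, as they did with trends removed (0.157 to 0.301 in KO hearts and 0.0843 to 0.228 in WT hearts).

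Ucp2, an inner-membrane carrier of the uncoupling protein family often linked to lower mitochondrial oxidant release (chr7:100493337-100502020), had 70.1, 106, 62.1 and 68.7 CPM in KO hearts 1 to 4, against 114, 353, 321, 173 and 168 CPM in WT hearts 1 to 5. All KO hearts were lower, and WT hearts 2 and 3, the shallowest libraries, were the highest. Ucp2 fell by edgeR (log2 fold change -1.55 ± 0.29, adjusted p = 0.000451) and with trends removed (-1.99 ± 0.31, adjusted p = 0.000237). Without WT hearts 2 and 3, a choice made with earlier results known, its log2 fold change was -0.99 and still called (adjusted p = 0.00244, edgeR).

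Set by location, 3 of the 7 mitochondrial genes were higher and 3 lower, against 8 higher and 6 lower of the 21 cytosolic genes and 2 higher and 4 lower of the 12 in other or several places. With trends removed these were 2 and 2, 5 and 7, and 2 and 3. These counts and the pathway counts below stand beside 26.2% higher and 25.2% lower of all tested genes by edgeR. With trends removed those shares were 19.0% and 19.7%. The median log2 fold change was 0.14 for mitochondrial and 0.08 for cytosolic genes by edgeR, and 0.03 for both with trends removed. With Prdx5, which is found in several places, moved out of the mitochondrial genes, 2 of 6 were higher and 3 lower by edgeR and 1 and 2 with trends removed, and their median was -0.17 and -0.09, a placement chosen after seeing the data. The mitochondrial genes split in either case, with Txnrd2 and Prdx5 higher and Glrx2 and Ucp2 lower in both fits. By pathway, 5 of the 21 glutathione genes, glutaredoxins included, were higher and 9 lower by edgeR, and 2 and 9 with trends removed. Of the 11 thioredoxin and peroxiredoxin genes, 6 were higher and 2 lower by edgeR, and 6 and 1 with trends removed. The summed level of those 11 genes was 861 to 942 CPM in KO hearts and 617 to 788 CPM in WT hearts, and 831 to 889 CPM in KO hearts and 652 to 793 CPM in WT hearts with trends removed. Every KO heart exceeded every WT heart on both scales. On CPM this sum averaged 908 in KO hearts and 692 in WT hearts. Prdx5 alone averaged 221 ± 45 and 91.8 ± 16.7 CPM in the same order, so 1 abundant gene weighs heavily in the sum. Whether the groups stay apart without Prdx5 was not tested. The 21 glutathione genes summed to 1223 to 1470.3 CPM in KO hearts and 1238 to 1385 CPM in WT hearts, which overlapped, and to 970.3 to 1217 CPM in KO hearts and 1332 to 1657 CPM in WT hearts with trends removed, where every KO heart was lower.

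Ratios within a heart set paralogs against each other without the library scale. Reads of Prdx3, the mitochondrial form, over those of cytosolic Prdx2 were 0.567, 0.428, 0.533 and 0.279 in KO hearts 1 to 4, against 0.811, 0.966, 0.991, 0.926 and 0.875 in WT hearts 1 to 5. The groups did not overlap on reads or with trends removed (0.354 to 0.616 in KO hearts and 0.749 to 0.869 in WT hearts). On FPKM this ratio is the read ratio times a constant, so FPKM adds no further check. Txnrd2 over Txnrd1 was 0.489, 0.561, 0.557 and 0.614 in KO hearts 1 to 4, against 0.393, 0.378, 0.370, 0.451 and 0.332 in WT hearts 1 to 5, again without overlap. With trends removed that ratio averaged 0.471 ± 0.0104 in KO hearts and 0.441 ± 0.057 in WT hearts (SD, n = 4 and 5), and the groups overlapped. Gclm over Gclc, modifier over catalytic subunit, averaged 0.897 ± 0.201 in KO hearts and 0.697 ± 0.080 in WT hearts on reads, with overlap, and 1.08 ± 0.23 and 0.611 ± 0.0998 without overlap when trends were removed. The latter values share the limit on the transcript of Gclm given above. Txn2 over Txn1 averaged 9.23 ± 0.72 in KO hearts and 14.3 ± 4.9 in WT hearts, and Glrx2 over Glrx averaged 0.508 ± 0.095 and 0.599 ± 0.158 in the same order. Both of these overlapped, on reads and with trends removed.

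**Figure D4:**
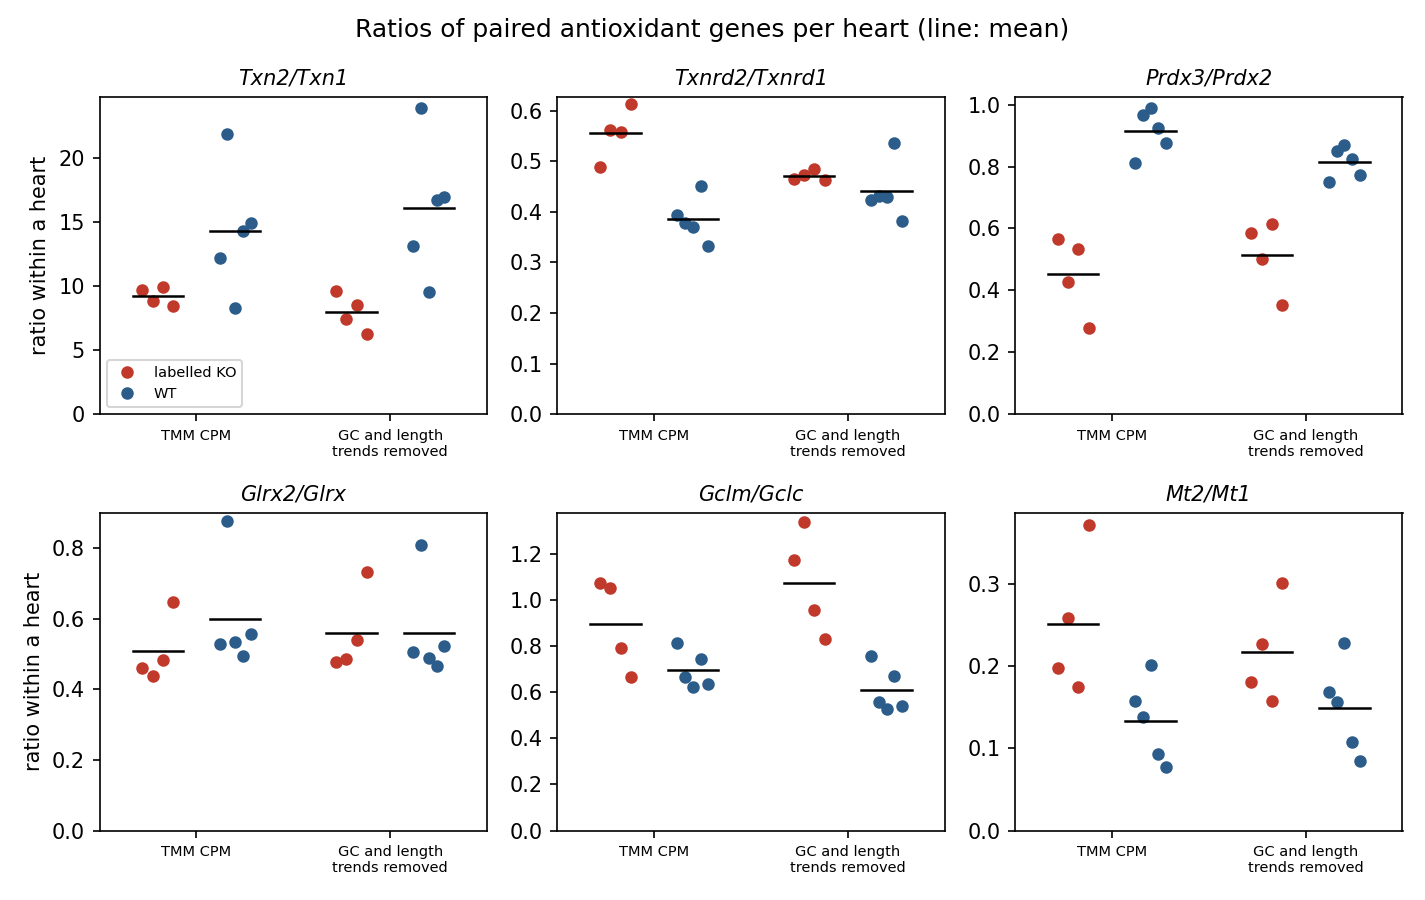
Ratio of 2 related genes within each heart (vertical axis from 0, line at the mean) for 6 pairs in KO hearts (red) and WT hearts (blue), from TMM CPM (left in each panel) and with GC and length trends removed (right). Prdx3/Prdx2 is lower in every KO heart on both scales, while Txnrd2/Txnrd1 separates the genotypes on the first scale and not on the second.

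The direction of the genes followed their base composition. Across the 40 genes the edgeR log2 fold change and transcript GC content had a Spearman rho of 0.59, the same value as over 12542 genes, and with trends removed the rho over the 40 was 0.20. These points share the same 9 libraries. With all genes divided by GC content into 4 bins of equal size, the median log2 fold change was -0.58, -0.20, 0.19 and 0.58 with rising GC. Gpx1, Gpx4, Gstp1 and Keap1 are GC-rich (55.8% to 60.2%) and Gclm, Prdx1 and Glrx2 are GC-poor (42.1% to 43.6%), each moving in the direction of its bin by edgeR. Gpx3, Gstm1 and Ucp2, at 53.6% to 56.0% GC, were lower against that direction, while Txn1 and Gss, at 47.2% and 48.2% GC, were higher against it. For these 5 genes the fold was larger with the trends removed. Shared reads limit further genes beside those named above: exons of Prdx2 overlap Rnaseh2a (5.80% of bases) and Junb (5.67%), those of Ucp2 overlap Dnajb13 (4.36%) and those of Gstz1 overlap Pomt2 (9.14%), all on the opposite strand, and the pseudogenes Gpx4-ps2 and Prdx6-ps2 resemble Gpx4 and Prdx6.

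**Figure D5:**
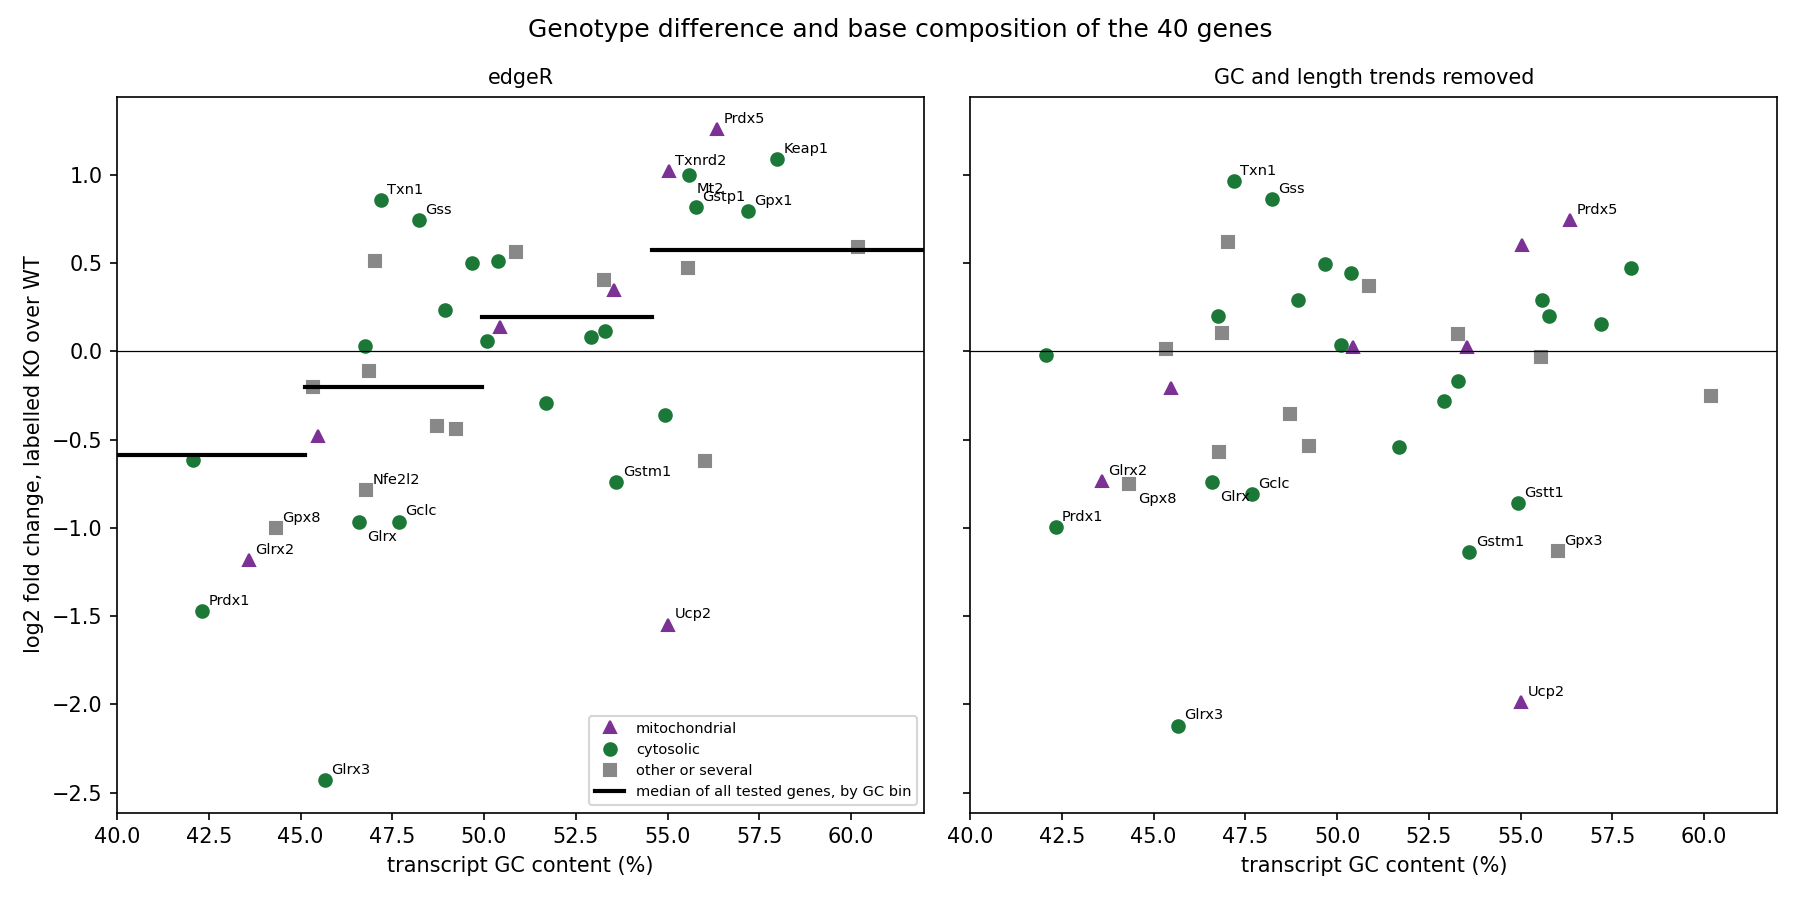
Log2 fold change (vertical axis, KO over WT) of the 40 antioxidant genes against the GC content of their transcripts (horizontal axis, %), by edgeR (left) and with GC and length trends removed (right), with symbols for location and black lines for the median of all tested genes in each of 4 GC bins. The lines climb from -0.58 to 0.58, and Ucp2, Gstm1, Txn1 and Gss lie off that trend.

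The wider pathway was covered by 86 further genes in 6 lists, of which 84 had a row and 70 were tested. Of those, 23 were higher and 12 lower by edgeR, and 23 and 13 with trends removed. Over all tested genes 26.2% were higher and 25.2% lower by edgeR, and 19.0% and 19.7% with trends removed. The counts of each list below are to be read beside these shares. Among further NRF2 targets, 10 of 21 were higher and 2 lower, and 8 and 3 with trends removed. Genes of the pentose phosphate pathway, which supplies NADPH, were among both the higher and the lower ones. Taldo1, transaldolase, averaged 68.0 ± 6.3 CPM in KO hearts and 28.1 ± 6.5 CPM in WT hearts (log2 fold change 1.25 ± 0.15, adjusted p = 2.30e-05, edgeR). Tkt, transketolase, averaged 33.5 ± 6.4 CPM in KO hearts and 17.6 ± 3.5 CPM in WT hearts (log2 fold change 0.95 ± 0.17, adjusted p = 0.000323, edgeR), and Pgd, phosphogluconate dehydrogenase, averaged 29.9 ± 3.2 CPM in KO hearts and 17.2 ± 2.4 CPM in WT hearts (log2 fold change 0.78 ± 0.14, adjusted p = 0.000345, edgeR). G6pdx, glucose-6-phosphate dehydrogenase, the NADPH-producing first enzyme of the pathway, went the other way and is named after its values were seen. It averaged 6.05 ± 1.52 CPM in KO hearts and 10.2 ± 1.7 CPM in WT hearts, lower by edgeR (log2 fold change -0.76 ± 0.20, adjusted p = 0.00524) and with trends removed (-0.98 ± 0.20, adjusted p = 0.00139). Blvrb, biliverdin reductase B, averaged 9.84 ± 2.11 CPM in KO hearts and 3.68 ± 0.81 CPM in WT hearts (log2 fold change 1.45 ± 0.21, adjusted p = 7.06e-05, edgeR). Taldo1, Tkt, Pgd and Blvrb remained higher with trends removed (0.61 to 1.12). Among genes that control NRF2, 5 of 11 were higher and 2 lower, and 6 and none with trends removed. Sqstm1, whose product p62 binds KEAP1, averaged 342 ± 63 CPM in KO hearts and 185 ± 20.1 CPM in WT hearts (log2 fold change 0.89 ± 0.14, adjusted p = 0.000134, edgeR). Park7 and Mafg, a small MAF partner of NRF2, rose by 1.01 ± 0.16 and 0.91 ± 0.19 log2 units (SE), and Sqstm1, Park7 and Mafg were also higher with trends removed. Cul3, the ligase scaffold that KEAP1 serves, averaged 27.3 ± 9.1 CPM in KO hearts and 58.3 ± 5.5 CPM in WT hearts (log2 fold change -1.08 ± 0.19, adjusted p = 0.000365, edgeR), and was not called with trends removed (-0.35).

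Further glutathione transferases were 2 higher and 3 lower of 10 tested, and 1 and 4 with trends removed, beside 26.2% higher and 25.2% lower of all tested genes by edgeR. Gstm7, Gstm2 and Gstm5 were lower in both fits, as Gstm1 was, with edgeR log2 fold changes of -0.92 ± 0.14, -0.88 ± 0.14 and -0.74 ± 0.18 (SE), with the limit on shared reads given above. Gstt2 was higher (1.28 ± 0.24). Of 10 tested genes of glutathione turnover and supply, 3 were higher and 1 lower, and 3 and 2 with trends removed. Glo1, glyoxalase 1, which uses glutathione to clear methylglyoxal, averaged 118 ± 36 CPM in KO hearts and 40.2 ± 2.3 CPM in WT hearts (log2 fold change 1.55 ± 0.17, adjusted p = 1.00e-05, edgeR), and Oplah, which recycles oxoproline, averaged 58.5 ± 8.0 CPM in KO hearts and 27.3 ± 4.8 CPM in WT hearts (log2 fold change 1.10 ± 0.15, adjusted p = 4.27e-05, edgeR). Esd, which hydrolyses S-formylglutathione, was lower (-0.91 ± 0.14), and Slc3a2, the heavy chain of the cystine transporter, was higher (0.43 ± 0.14) but not with trends removed. Of 13 thioredoxin-like genes and methionine sulfoxide reductases, 3 were higher and 2 lower, and 5 and 2 with trends removed. Glrx5, a mitochondrial glutaredoxin of iron-sulfur cluster assembly, averaged 29.3 ± 3.0 CPM in KO hearts and 7.49 ± 3.55 CPM in WT hearts (log2 fold change 1.85 ± 0.23, adjusted p = 2.75e-05, edgeR), opposite in direction to Glrx, Glrx2 and Glrx3, and remained higher with trends removed (1.58). Txndc5 rose by 0.66 ± 0.13 and Nxn by 0.72 ± 0.19 log2 units, the second not with trends removed, and Txnl1 was lower by edgeR only (-0.96 ± 0.15). Of 5 tested genes of the metal response and uncoupling, none was higher and 2 were lower, the muscle carrier Ucp3 (-0.71 ± 0.23) in both fits and the metal-sensing factor Mtf1 (-0.33 ± 0.13) by edgeR only.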

How the data were processed

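Poly(A) RNA of 4 KO and 5 WT mouse hearts was measured in non-stranded, single-end libraries, per the labels' protocols. The authors deposited read counts per gene, which were used as deposited, and FPKM values, which scale fragments to transcript length and to depth, for the same hearts. Per the submitters' processing notes, mm10 (GRCm38) was the genome build, and Cufflinks 2.1, HTSeq, TopHat2 2.0.10, TopHat, Bowtie2, edgeR and DESeq were used, in roles that are not stated. The sources used here give neither the annotation nor the strand setting. Without strand, reads of overlapping or antisense genes cannot be told apart.

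Counts were tested over the whole table with edgeR 4.0.16 in R 4.3.3 (TMM, its default expression filter by group with at least 10 reads and 15 in total, quasi-likelihood F test, Benjamini-Hochberg, threshold 0.05). For the second fit, every heart's log2 deviations from the mean of all hearts were smoothed by lowess (span 0.3) on transcript GC content and then on length, and the curves became offsets, for the 99.2% of tested genes with a GC value. GC content and length were those of each gene's longest GENCODE vM21 transcript, which may differ from the transcript expressed in these hearts. FPKM was tested with limma 3.58.1 on log2(FPKM + 1) where the mean FPKM was 0.5 or more, a scale that understates changes of low genes. P-values measure the spread between these hearts. On simulated data with 200 changed genes and no GC trend, most calls of both fits were changed genes. With a GC trend simulated, most calls of the first fit were unchanged genes, and few were with trends removed, a fit made to take out such a trend. That fit made 138 calls there, against 4852 on the real hearts. It recovered 16.7% of the smallest simulated fold changes, and both fits recovered 20.9% of them without a trend. The simulation cannot tell which calls on the real hearts are true, because its setting differs from theirs. No 2 hearts had the same values, and the counts of hearts of 1 group differed by 5.67 to 128 times the sampling variance. Sums, ratios, location and pathway counts and motif matches are descriptions without a test. Coordinates are those of GENCODE vM21 on GRCm38, and promoter windows are RefSeq's on GRCm38.p6.

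The 40 genes, the pathway lists and the cell type markers were chosen with earlier results of these data known. By rule, values per heart are given for Nfe2l2, Keap1, Gclc, Gclm, Nqo1, Hmox1, the 4 thioredoxin genes, Mt1 and Mt2, and for every other gene with the same call in both fits. Other genes have means or fold changes, and from each further list up to 4 called genes with the smallest p are named. Alternatives were DESeq2 1.42.0, limma-voom, other size factors (RLE, upper quartile), other filters (none, or 1 CPM on average), each heart left out, a replicate block, mitochondrially encoded genes and Rn45s left out, and other FPKM settings.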

Additional observations from a re-analysis of the deposited data

Results flagged for a closer look

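Among 80 groups of CPM values (40 genes in each genotype), 6 held a heart whose gap to its nearest neighbour exceeded Dixon's 95% limit for the group's range, and chance flags about 1 in 20 groups. In KO hearts these were Gpx1 in KO heart 4 (49.7 CPM, above the other 3), Cat in KO heart 2 (258.7 CPM, above the others), Txnrd2 in KO heart 1 (19.1 CPM, below the others) and Prdx1 in KO heart 1 (34.2 CPM, above the others). In WT hearts they were Gpx1 in WT heart 1 (36.9 CPM, above the other 4) and Gstt1 in WT heart 2 (19.1 CPM, above the others).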

How the results depend on the processing

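The counts of 13 antioxidant genes higher and 13 lower ran from 11 to 13 and from 10 to 13 on leaving out each heart. The replicate numbers gave no pairing: same-numbered hearts had correlations of -0.26 to 0.041 over 4 pairs, and 1 of 4 KO hearts correlated best with its own number. With the replicate block the calls were 11 higher and 13 lower (5030 of all genes called), and with the block and the GC and length trends removed together they were 7 and 13 (3528 of all genes). Other settings gave 16 higher and 14 lower at a threshold of 0.1, 12 and 13 with DESeq2, 14 and 13 with limma-voom, and 12 and 10 without WT hearts 2 and 3. With trends removed, 9 higher and 12 lower became 7 to 11 and 12 to 13 on leaving out each heart, and 8 and 11 without WT hearts 2 and 3, settings that were chosen after seeing the data. Among count fits, calls over all genes are given here only for the main fit, the fit with trends removed and the fits with the block. Counts under the other settings thus describe the antioxidant genes alone, without a background. Of the 26 called genes, 21 kept their call on leaving out each heart and 16 under all 20 count settings tried at the 0.05 threshold.

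Signs changed for these log2 fold changes, none of them called in the new direction, and the cause was not tested. With trends removed, without and with the block, Gpx4 was -0.25 and -0.26, Gpx7 -0.029 and -0.10, Gstz1 0.11 and 0.15, Mt1 -0.28 and -0.33, and Srxn1 -0.16 and -0.12, while Mgst1 was 0.015 without the block. With limma-voom Gsr was -0.017 and Mt1 -0.11. With the block Nqo1 was -0.018. Without WT hearts 2 and 3 Gsr was -0.054, Gstk1 -0.016 and Nqo1 -0.14. On leaving out each heart, Gsr ran from -0.0015 to 0.12, Gstk1 from -0.10 to 0.35, Mt1 from -0.056 to 0.25 and Nqo1 from -0.19 to 0.27. From deposited to median-centred FPKM, Cat went from 0.21 to -0.28, Gsta4 from 0.12 to -0.37 and Gsto1 from 0.28 to -0.21. Likewise Gstt1 went from 0.15 to -0.34, Mgst1 from 0.31 to -0.18 and Prdx3 from 0.051 to -0.44. The centred values of these genes had the same sign as their edgeR log2 fold changes on counts. Glrx3 had the thinnest counts, with 1 to 34 reads per heart, for a reason that was not tested.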

Other observations

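The summed level of all 40 antioxidant genes was 2803 ± 202 CPM in KO hearts and 2778 ± 205 CPM in WT hearts (SD, n = 4 and 5), with overlapping ranges. With GC and length trends removed the sums were 2523 ± 151 and 3086 ± 315 CPM in the same order, and every KO heart was below every WT heart. The glutathione peroxidases alone summed to 686 ± 85 CPM in KO hearts and 597 ± 48 CPM in WT hearts, and with trends removed to 520 ± 43 and 745 ± 78 CPM in the same order, so that the order of the genotypes turned with the correction. On CPM most of that sum is Gpx4, at 474 ± 76 in KO hearts and 314 ± 19 in WT hearts. Gpx3 is the next part, at 160 ± 10 and 247 ± 40 CPM in the same order. With trends removed Gpx3 was called lower (log2 fold change -1.13) and Gpx4 was not called (-0.25). The spread of single genes between hearts of 1 genotype was similar, with a median coefficient of variation of 17.8% in KO hearts and 17.2% in WT hearts, and it ran from 4.41% to 73.7% in KO hearts and from 6.10% to 60.9% in WT hearts.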
